A study of Mus musculus with 12 samples.

Results

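The receptors for the growth factors GDNF and FGF, and 3 transcription factor genes regulated by GDNF, were followed through cultured germline stem cells and germ cells of the mouse testis. The set held 9 of the 35652 listed genes, chosen by symbol and matched to the list used at postnatal day 7 by Entrez ID. They were the GDNF co-receptor gene Gfra1 and its signalling partner Ret, the FGF receptor genes Fgfr1, Fgfr2, Fgfr3 and Fgfr4, and the transcription factor genes Lhx1, Bcl6b and T. The rule used no measured value, although the set was chosen with earlier results of these data known. All 9 were listed in every library.

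GDNF is a secreted factor made by somatic cells of the testis, and it sustains the self-renewal of spermatogonial stem cells. It binds the membrane-anchored protein GFRA1, which brings it to RET, a receptor tyrosine kinase that passes the signal to the RAS, ERK, PI3K and SRC family pathways. FGFs signal through receptor tyrosine kinases of their own into many of the same pathways, and cultured germline stem cells are commonly grown with both kinds of factor. Lhx1, Bcl6b and T encode transcription factors that GDNF signalling is known to raise in cultured spermatogonial stem cells.

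Messenger RNA was counted by SC3-seq, a method that amplifies cDNA from small amounts of RNA and sequences the 3' ends of transcripts, in 12 libraries, 2 for each of 6 groups. In 3 groups these were germline stem cells in culture (GSCs), wild type (WT) or Stag3 knockout, and all 3 carried the transgenes of the line Acrosin-EGFP; beta-Actin-EGFP (AAG). The knockouts were represented by the lines KO1 and KO2, and Stag3 encodes a subunit of the cohesin ring that is best known from meiosis. The other 3 groups were germ cells from Vasa-RFPTg/0 testes, collected on embryonic day 16 (E16), embryonic day 17 (E17) or postnatal day 7 (P7). Characterising the STAG3-cohesin complex was the purpose of the series. The sources used here do not give how the knockouts were made, how GSCs were cultured, how germ cells were isolated or how many animals were pooled, and each knockout line is a single line. Whether the 2 libraries of a group came from separate cultures or from separate animals is not stated, and p-values here therefore reflect no more than the spread between libraries.

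Levels are given in RPM, the reads of a gene per 1000000 reads of genes outside the mitochondrion. The libraries held 1938644 to 4596607 counts each, and 3 counts, the upper limit that a count of 0 allows, correspond to 0.748 to 1.73 RPM. Floors and intervals cover counting error only. Stag3 itself stood at 385 and 420 RPM in WT, with 295 and 304 for KO1 against 137 and 152 for KO2, so its RNA was still counted in both knockout lines. Tags at the 3' end check a knockout only where the altered part lies there. Stag3 stood at 411 and 464 RPM at E16, 535 and 515 at E17, and 227 and 233 at P7. The germ cell markers Ddx4, Dazl, Mael, Tdrd1 and Dppa5a were all counted in all groups, with sums of 2429 to 3483 RPM. The 9 listed markers of undifferentiated spermatogonia summed to 363 to 417 RPM in GSCs, 212 to 247 in the fetal groups and 818 to 911 at P7, and their make-up differed between WT and knockout GSCs as given with that comparison. ERCC spike-in RNA took 2.80% to 3.41% of counts in GSC libraries, 1.22% and 1.52% at E16, 0.194% and 0.231% at E17, and 5.85% and 4.69% at P7. The P7 tables used another gene list, so age and gene list cannot be told apart in any comparison with P7.

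Coordinates are those of RefSeq on GRCm38.p6. Gfra1 (Entrez ID 14585) lies on the minus strand at chr19:58235581-58455946, and Ret (19713) on the minus strand at chr6:118151748-118197744. Fgfr1 (14182) lies on the plus strand at chr8:25518759-25575718, Fgfr2 (14183) on the minus strand at chr7:130162451-130266808, Fgfr3 (14184) on the plus strand at chr5:33721724-33737068 and Fgfr4 (14186) on the plus strand at chr13:55152818-55168759. Lhx1 (16869) and Bcl6b (12029) share chromosome 11, on the minus strand at chr11:84517975-84525534 and chr11:70224127-70229798, and T (20997) lies on the plus strand at chr17:8434423-8442496. Values are per gene. The annotation places the antisense RNA gene Gm16277 over Gfra1, the antisense RNA gene Gm16159 over Fgfr1 and the unclassified transcript G630022F23Rik over Fgfr3, each on the opposite strand. These overlaps are of whole gene spans, and whether exons or 3' ends overlap was not checked. The sources used here do not say whether counting used strand. Where these 3 genes share counted bases with their partners, reads could therefore not be told apart.

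The GDNF receptor genes were high in GSCs and at P7 and low in fetal germ cells. Gfra1, which encodes the GDNF-binding co-receptor, stood at 139 and 124 RPM in WT GSCs, 154 and 159 in KO1, and 161 and 167 in KO2. It stood at 8.45 and 4.22 RPM at E16, 15.03 and 15.7 at E17, and 186 and 158 at P7. All 4 knockout libraries lay above both WT libraries, all 4 fetal libraries lay far below every other library, and P7 overlapped KO1 and KO2. Ret, the receptor tyrosine kinase gene, stood at 103 and 94.4 RPM in WT, 138 and 145 in KO1, and 162 and 166 in KO2. It stood at 14.4 and 19.7 RPM at E16, 28.9 and 37.7 at E17, and 219 and 235 at P7. For Ret no neighbouring groups in the order P7, KO2, KO1, WT, E17, E16 overlapped, while for Gfra1 the same order held with an overlap of P7 and KO2.

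**Figure D1:**
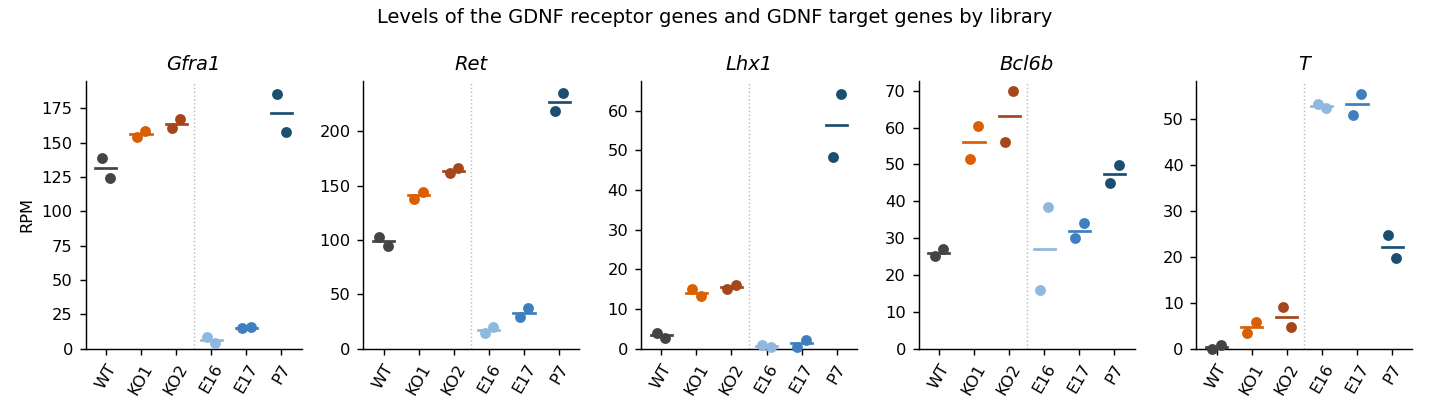
Levels of Gfra1, Ret, Lhx1, Bcl6b and T in RPM (linear axes from 0) in each of the 12 libraries, with points for libraries and a bar for the mean of 2. Gfra1 and Ret are high in GSCs and at P7 and low at E16 and E17, T runs the other way between GSCs and fetal cells, and Lhx1 is highest at P7, between 48.3 and 64.3 RPM.

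Of the FGF receptor genes, Fgfr1 was well counted in every library and Fgfr4 hardly at all. Fgfr1 stood at 62.9 and 63.8 RPM in WT, 88.3 and 71.6 in KO1, 81.5 and 78.8 in KO2, 45.2 and 36.6 at E16, 48.0 and 52.3 at E17, and 67.1 and 65.8 at P7. Its 12 libraries therefore spanned a far narrower range than those of Gfra1 or Ret, and the fetal libraries were again the lowest. Fgfr2 stood between 1.11 and 2.99 RPM in GSC libraries, between 4.05 and 7.04 in fetal libraries, and at 6.25 and 7.11 at P7. No GSC library reached the lowest in vivo library for Fgfr2. Fgfr3 stood between 4.22 and 6.81 RPM in GSC and E16 libraries, at 12.04 and 13.3 at E17 and between 7.56 and 8.35 at P7, so that E17 was above all other libraries. Fgfr4 had 4 counts in the WT libraries together, 1 in KO1, 0 in KO2, 3 at E16, 5 at E17 and 0 at P7. All Fgfr4 values were at or under the floor of 3 counts per library, so it was not tested and no order of its groups was read.

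**Figure D2:**
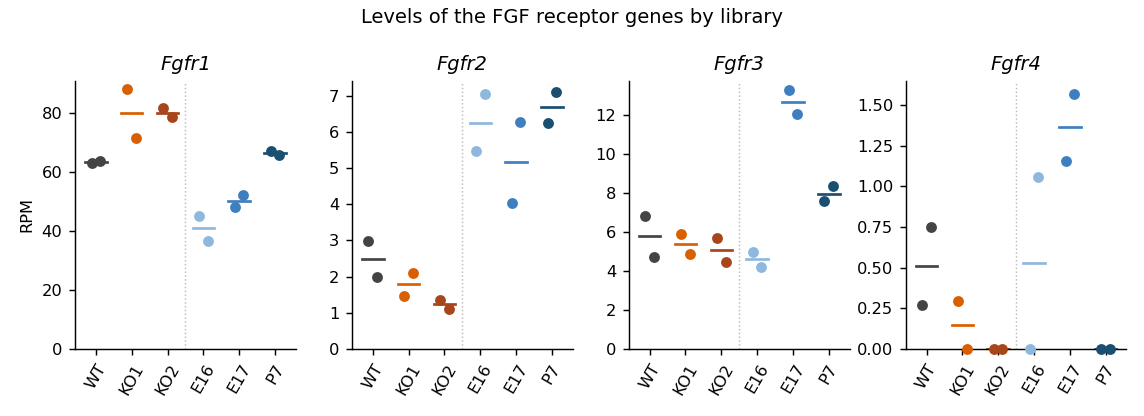
Levels of Fgfr1, Fgfr2, Fgfr3 and Fgfr4 in RPM (linear axes from 0, each with its own scale) in each of the 12 libraries, with points for libraries and a bar for the mean of 2. Fgfr1 lies between 36.6 and 88.3 RPM, Fgfr3 is highest at E17, and Fgfr4 does not exceed 3 counts in any library.

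The make-up of each receptor pair or family was followed as a share of counts within a library, which is free of scaling between libraries. Counts of 3' ends are not scaled by length, so a share was compared only across libraries. Gfra1 took 57.4% of the Gfra1 and Ret counts in WT replicate 1 (95% Wilson interval 54.2 to 60.6) and 56.8% in replicate 2 (53.48 to 60.03). The share was 52.7% and 52.3% in KO1, 49.8% (47.0 to 52.7) and 50.2% (47.3 to 53.0) in KO2, and 45.9% (43.2 to 48.7) and 40.1% (37.5 to 42.8) at P7. It was 37.0% (24.5 to 51.4) and 17.6% (10.4 to 28.4) at E16 and 34.2% and 29.4% at E17, on only 46 to 102 counts a library. The intervals of WT thus lay above those of KO2 and of P7, and the difference was not tested. Fgfr1 took 86.2% to 89.5% of FGF receptor counts in WT, 91.1% to 92.0% in KO1, 92.1% to 93.4% in KO2, 74.8% to 81.3% at E16, 72.2% to 72.5% at E17 and 81.0% to 82.9% at P7. At E17 Fgfr3 took 20% (13.7 to 28.2) and 16.7% (11.4 to 23.8), the largest Fgfr3 shares of the 12 libraries.

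**Figure D3:**
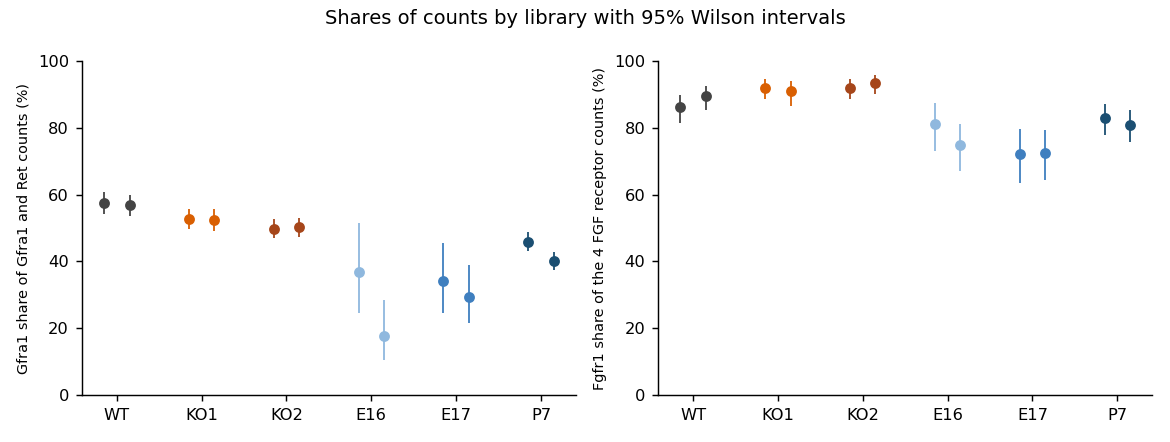
Share of Gfra1 in the counts of Gfra1 and Ret (left) and of Fgfr1 in the counts of the 4 FGF receptor genes (right), in percent from 0 to 100, for each of the 12 libraries. Points are libraries and bars are 95% Wilson intervals, which cover counting error only, and the Gfra1 share runs from 57.4% in WT replicate 1 to 17.6% in E16 replicate 2.

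The first comparison set the Stag3 knockout lines against WT GSCs. Ret, Lhx1, Bcl6b and T were higher in the knockouts, in the mean of both lines and in each line, while Gfra1, Fgfr1 and Fgfr3 did not pass the threshold (an adjusted p under 0.05 in edgeR's quasi-likelihood test, with Benjamini-Hochberg adjustment over all genes tested). Lhx1 and T passed the filter on low counts only through the knockout libraries, where they were high, and were therefore left out of the count. Ret and Bcl6b are 40% of the 5 members that pass it either way. Of all 11890 genes, 19.2% passed in the mean of both lines (8.64% higher, 10.6% lower), 13.6% in KO1 (6.24% higher, 7.40% lower) and 15.6% in KO2 (7.19% higher, 8.45% lower). With limma the higher calls rose from 44.9% to 60.8% of all calls in the mean of both lines, in KO1 from 45.7% to 59%, and in KO2 from 46% to 58.7%, and ERCC totals gave 25.9% in KO1 and 58.4% in KO2. Fgfr2 and Fgfr4 failed the filter. Ret rose by a log2 fold change of 0.57 ± 0.10 (SE) in the mean of both lines (adjusted p = 1.91e-06), by 0.47 ± 0.11 in KO1 (adjusted p = 0.00144) and by 0.68 ± 0.11 in KO2 (adjusted p = 6.68e-07). With ERCC totals as library sizes the Ret call was lost in KO1 (0.36, adjusted p = 0.116). Gfra1 differed by 0.23 ± 0.09 in the mean of both lines (adjusted p = 0.0584), and passed without WT replicate 1 (0.33, adjusted p = 0.018), with limma on log2(RPM + 1) (adjusted p = 0.0186) and with the replicate number as a block (adjusted p = 0.0366). Fgfr1 differed by 0.29 ± 0.12 (adjusted p = 0.0779), and passed with limma (adjusted p = 0.0355) and without KO1 replicate 2 (adjusted p = 0.0463). Fgfr3 had means of 5.77 ± 1.47 (SD, n = 2), 5.39 ± 0.71 and 5.05 ± 0.87 RPM in WT, KO1 and KO2, a fold change of -0.18 ± 0.39 whose sign turned without WT replicate 1.

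The 3 transcription factor genes regulated by GDNF were all higher in the knockouts. Lhx1, a LIM homeobox gene that acts in stem cell maintenance, stood at 4.08 and 2.74 RPM in WT, 15.01 and 13.3 in KO1, and 15.1 and 16.1 in KO2. All 4 knockout libraries lay close together, well above both WT libraries, with log2 fold changes of 2.0 ± 0.37 in KO1 and 2.14 ± 0.36 in KO2. In the same edgeR test with no filter on low counts, so that the choice of genes tested did not turn on their levels in the knockouts, Lhx1 passed in KO1 (adjusted p = 2.54e-06) and KO2 (adjusted p = 9.85e-08). Bcl6b, a BTB zinc finger repressor gene, stood at 25.05 and 27.2 RPM in WT, 51.5 and 60.4 in KO1, and 56.2 and 69.9 in KO2. It too showed no overlap, and rose by 1.04 ± 0.17 in KO1 (adjusted p = 2.18e-06) and 1.22 ± 0.17 in KO2 (adjusted p = 1.22e-08). T, which encodes the T-box factor brachyury, had 0 and 3 counts in WT, 12 and 17 in KO1, and 34 and 17 in KO2. Its level in the knockouts over that in WT was 15.1 (95% counting interval 4.99 to 74.8), or 11.9 (3.68 to 60.9) for KO1 and 17.9 (5.78 to 89.6) for KO2. With no filter T passed in KO1 (adjusted p = 0.00016) and KO2 (adjusted p = 3.77e-07). The fitted fold change of T rests on the 3 counts of WT replicate 2, at 3.71 on the log2 scale with both WT libraries, 2.84 without replicate 1 and 7.29 without replicate 2.

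Since Lhx1 and T rose together in both lines, the bases just before their starts are shown, from RefSeq on GRCm38.p6. Promoter entries were matched for 6 of the 9 members, namely Gfra1, Fgfr2, Fgfr3, Fgfr4, Lhx1 and T. Capitals mark the only match of the 5 motifs searched, a CCAAT box (CCAAT, or ATTGG when read on the other strand). The T window is chr17:8434173-8434422 on the plus strand, and the Lhx1 window is chr11:84525536-84525784 on the minus strand, cut short by 1 base where an annotated UTR begins.
T: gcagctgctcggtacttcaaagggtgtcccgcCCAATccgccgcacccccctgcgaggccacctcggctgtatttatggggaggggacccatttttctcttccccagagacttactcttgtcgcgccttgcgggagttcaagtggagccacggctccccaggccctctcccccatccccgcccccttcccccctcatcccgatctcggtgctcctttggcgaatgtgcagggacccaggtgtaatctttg
Lhx1: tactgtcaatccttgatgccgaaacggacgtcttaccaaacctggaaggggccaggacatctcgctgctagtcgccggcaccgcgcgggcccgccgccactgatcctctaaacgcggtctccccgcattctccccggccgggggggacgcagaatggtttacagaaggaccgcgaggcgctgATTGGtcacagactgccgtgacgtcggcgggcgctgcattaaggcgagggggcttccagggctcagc
The other motifs were ETS (CCGGAA), AP-1 (TGANTCA), CRE (TGACGTCA) and EGR (GCGTGGGCG), each searched on both strands, and none of these letters was in either window. Of 32851 promoter windows of 250 bases, 33.85% held the CCAAT box, 12.03% ETS, 6.749% AP-1, 1.546% CRE and 0.536% EGR. A match describes letters and is not a bound site, and a missing match says nothing of the factor.

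**Figure D4:**
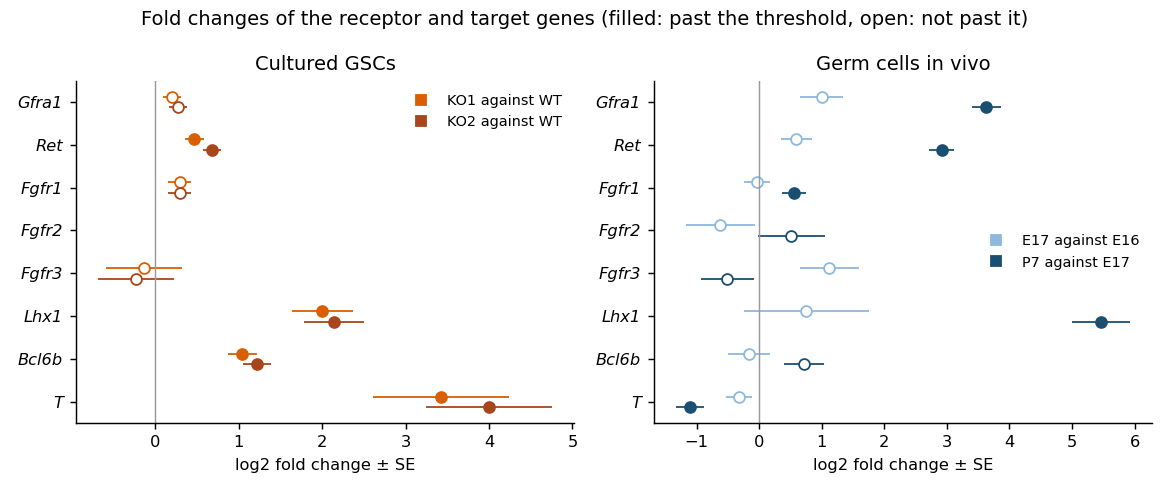
Log2 fold changes with their SE for the 8 members that were tested in at least 1 comparison, in KO1 and KO2 against WT (left) and in E17 against E16 and P7 against E17 (right), with filled points past the adjusted p threshold of 0.05. Ret, Lhx1, Bcl6b and T lie to the right in both knockout lines (the T values rest on 3 WT counts, and Lhx1 and T entered the test through the knockout libraries), and the P7 values of Gfra1, Ret and Fgfr1 turn to the other side with ERCC totals.

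The lines KO1 and KO2 were then compared directly. None of the 7 members tested passed (edgeR quasi-likelihood test), 1 of them had an unadjusted p under 0.05, and DESeq2 and limma also called 0, with 0 at an unadjusted p under 0.05 by each. Of all genes 0.833% were called (0.547% higher, 0.286% lower), and the higher calls, 65.7% of these, came to 82.9% with DESeq2 and 37% with ERCC totals. Ret was the member with the low unadjusted p, at -0.22 ± 0.11 for KO1 minus KO2 (adjusted p = 0.513). The largest fitted difference was that of T (-0.57 ± 0.51), and Bcl6b (-0.18 ± 0.16), Lhx1 (-0.14 ± 0.30) and Gfra1 (-0.07 ± 0.10) also had lower fitted values in KO1. Fgfr1 stood at -0.00074 ± 0.14, and Fgfr3 (0.095 ± 0.47) had a higher value in KO1. Marker lists moved with genotype in the same libraries, with members going both ways. Of the 9 markers of undifferentiated spermatogonia, Etv5, which is also on the pathway list, was higher in the knockouts. Without Etv5 the other 8 summed to 355 to 356 RPM in WT, 201 to 205 in KO1 and 186 to 216 in KO2. Mean levels in WT, KO1 and KO2 were 101, 55.7 and 57.5 RPM for Zbtb16, for Sall4 131, 80.1 and 72.8, and for Nanos3 58.4, 24 and 26, so that all 3 were lower in both lines. Of 12 listed Sertoli markers 11 were found, and they summed to 32.9 to 36.6 RPM in WT, 62.8 to 63.9 in KO1 and 43.2 to 48.3 in KO2, with Amh, Cst9 and Fshr at 0 in all 3 groups. Aard carried much of this, at 9.76, 28.3 and 24.8 RPM, and without it the sums were 23.9 to 26.1, 32.4 to 37.7 and 18.9 to 22.95, while Wt1 stood at 14.4, 13.1 and 5.58. The 10 fibroblast and feeder markers summed to 256 to 261 RPM in WT, 237 to 238 in KO1 and 219.5 to 221 in KO2, with Lum at 0 in WT and KO2. Without Fn1, which stood at 162, 188 and 180.4 RPM, they summed to 95.7 to 96.7, 46.4 to 52.7 and 38 to 41.6, with Col3a1 at 33.3, 13.4 and 8.32 and Col1a2 at 19.97, 6.31 and 6.3. The 5 peritubular myoid markers summed to 31.6 to 41.4 RPM in the WT libraries, to 24.1 to 25.3 in KO1 and to 19.4 in both of KO2, with Cnn1 at 0 in KO1. Without Ptch1 their sums were 4.74 to 7.62, 10.5 to 10.9 and 1.94 to 3.78. Leydig, endothelial, macrophage and erythroid markers each summed to at most 9.78 RPM in every GSC library, with 5 of the 6 Leydig markers at 0. Their part in the member results was not tested. In bulk libraries fewer cells of a type and less RNA per cell cannot be told apart.

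Other genes of the pathway were counted from a list of 110 ligands, receptors, adaptors, signalling genes and GDNF-regulated genes, of which 76 were tested in GSCs. In the mean of both lines 11 rose and 12 fell, 30.3% of those tested against 19.2% of all genes, and their median log2 fold change was 0.031 against 0.0021 over all genes. The 11 include Gfra2, given below, which passed the filter on low counts only through the knockout libraries. How the rest of the list passed the filter was not checked, so the share is not read as a result. Of the 12 other GDNF-regulated genes of spermatogonia 5 rose and 3 fell. The ETS factor genes Etv4 and Etv5 rose. Etv4 had means of 13.8 ± 3.62, 47.3 ± 6.71 and 44.8 ± 3.79 RPM in the WT, KO1 and KO2 groups, while Etv5 had 57.2 ± 6.15, 170.3 ± 17.2 and 193 ± 2.87. So did Egr2, an early response gene, which stood at 12.6 ± 0.61 RPM in WT, at 41.9 ± 19.7 in KO1 and at 43.0 ± 3.92 in KO2. The log2 fold changes were 1.70 ± 0.18 for Etv4 (adjusted p = 1.04e-12), 1.62 ± 0.11 for Etv5 (adjusted p = 4.84e-25) and 1.69 ± 0.20 for Egr2 (adjusted p = 4.01e-11). The 3 that fell, picked out after their values were seen, were Egr4 (-1.40 ± 0.09), the proto-oncogene Mycn (-0.66 ± 0.12) and Id4 (-0.58 ± 0.16), an inhibitor of basic helix-loop-helix factors that marks stem cells. Genes of this role therefore moved in both directions.

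Among other receptors and co-receptors 2 rose and 4 fell of 13 tested. The heparan sulphate proteoglycan genes Gpc4 (0.65 ± 0.19) and Sdc2 (-0.55 ± 0.20) are named by the rule for size, and both calls were lost with DESeq2 (adjusted p = 0.0688 and 0.213). Sdc4 fell by 0.34 in KO1 and by 0.50 in KO2 on the log2 scale, from a level of 243 ± 12.7 RPM in WT. Outside that rule, and picked out after its values were seen, is Gfra2, the co-receptor gene for the related factor neurturin. It had 2 and 6 counts in WT, 9 and 22 in KO1, and 32 and 33 in KO2 (2.60 ± 0.56). Gfra2 passed the filter on low counts only through the knockout libraries, where it was high, so no p-value is given. The counts of genes that rose include it. Gfra3, the artemin co-receptor gene, also picked out afterwards, was the 1 gene of the list called between the lines. That is 1.32% of the 76 tested, near the 0.833% of all genes. Gfra3 stood at 10.98 ± 0.71 RPM in KO1 and 3.69 ± 0.51 in KO2 (1.56 ± 0.40, adjusted p = 0.0249 in edgeR's quasi-likelihood test). Its values under other settings are not given here. Of 24 adaptors and proximal enzymes 1 rose and 2 fell, with the ubiquitin ligase gene Cbl at 0.42 ± 0.12 and the docking protein gene Gab1 at -0.57 ± 0.17. By line, Cbl passed in KO2 but not in KO1, and Gab1 passed in KO1 but not in KO2. Of 22 genes of the RAS, ERK and PI3K core 2 rose and 3 fell, with the PI3K subunit gene Pik3cd at -0.78 ± 0.16. Of the 26 ligand genes only 5 could be tested and 1, Fgf18, rose in the mean of both lines, while 0 rose in KO2. Fgf18 was picked out after its values were seen. Whether it passed the filter on low counts only through the knockout libraries was not checked. Gdnf itself had 0 counts in all 6 GSC libraries. The calls of Cbl (adjusted p = 0.0698) and Gab1 (0.0855) were lost with DESeq2.

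**Figure D5:**
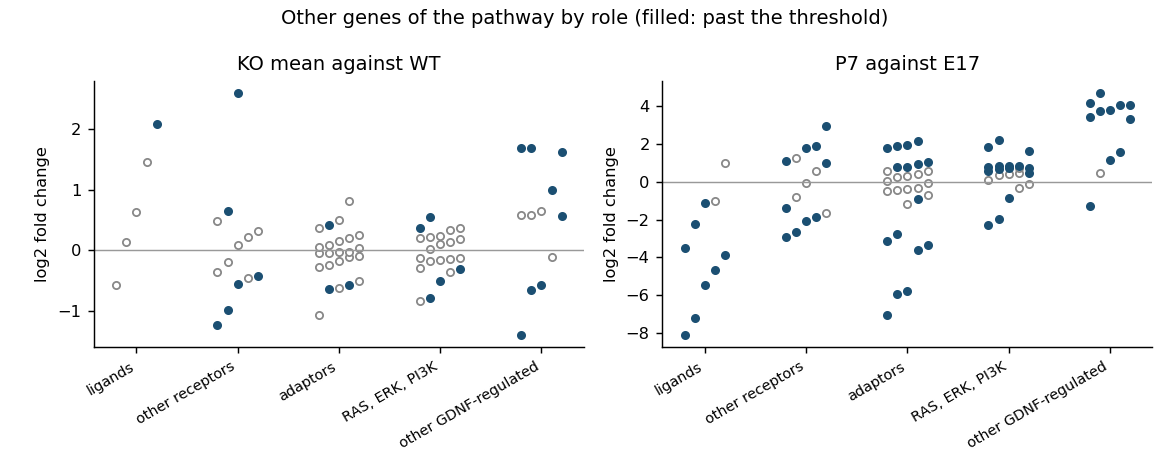
Log2 fold changes of the tested genes of the 110-gene pathway list by role for the knockout mean against WT (left) and in P7 against E17 (right), with filled points past the adjusted p threshold of 0.05. In the knockouts 11 genes rose and 12 fell. At P7 10 of the 12 other GDNF-regulated genes were higher with TMM scaling. Whether these passed the filter on low counts through the P7 libraries alone was not checked. ERCC totals moved the median of all genes from -0.13 to -4.81. With these totals Egr2 turned to lower, and the unnamed genes of this role are not given under them.

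The comparison of E17 with E16 addressed the fetal stage, when male germ cells are in mitotic arrest. Of 8 members tested, 0 passed (edgeR quasi-likelihood test) and 3 had an unadjusted p under 0.05, namely Gfra1 (1.00 ± 0.34, adjusted p = 0.0941), Ret (0.60 ± 0.24, adjusted p = 0.16) and Fgfr3 (1.12 ± 0.47, adjusted p = 0.166). By DESeq2 0 passed and 2 had an unadjusted p under 0.05, while limma on log2(RPM + 1) called these same 3, all higher. Of all genes 6.60% were called (1.64% higher, 4.96% lower), and the higher calls, 24.8% of these, came to 83.7% with limma and 100% with ERCC totals. For Gfra1, Ret and Fgfr3 both E17 libraries lay above both E16 libraries in RPM. The E16 libraries differed from each other most of the 6 pairs (chi-square of 5.95 per gene, against 1.53 to 3.93), with Bcl6b at 15.9 and 38.4 RPM and Gfra1 at 8.45 and 4.22. Without E16 replicate 1, Gfra1 passed as higher (1.46, adjusted p = 0.00675) and Bcl6b as lower (-0.65, adjusted p = 0.045), and without E16 replicate 2, Ret passed as higher (0.94, adjusted p = 0.0296). T stood at 53.2 and 52.4 RPM at E16 and 50.9 and 55.5 at E17, so its groups overlapped. Lhx1 had 3 counts at E16 and 5 at E17, too few to tell the stages apart. Of 88 pathway genes tested 1 rose, the RAS regulator gene Rasa1 (0.87 ± 0.20, adjusted p = 0.0155), and 2 fell, the ERK1 gene Mapk3 (-0.52 ± 0.12, adjusted p = 0.0192) and Egr4 (-0.93 ± 0.13, adjusted p = 0.00064). With ERCC totals Mapk3 and Egr4 turned to higher, and with limma the Mapk3 call was lost (-0.18, adjusted p = 0.297). The Rasa1 and Mapk3 calls were lost without either E17 library.

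The comparison of P7 with E17 set postnatal spermatogonia against fetal germ cells. With TMM scaling, Gfra1, Ret, Fgfr1 and Lhx1 were higher at P7 and T was lower, whereas ERCC totals turned Gfra1, Ret and Fgfr1 to lower and left Lhx1 higher without passing (0.88, adjusted p = 0.264) and T lower. Lhx1 passed the filter on low counts only through the P7 libraries and was left out of the count. The other 4 are 57.1% of the 7 members that pass it either way, and 67.9% of all 14776 genes passed in this comparison, 30.2% higher and 37.8% lower, so the share called among the members is near that of all genes. The higher calls came to 44.4% of all calls with TMM and 0.255% with ERCC totals. The sizes were 3.63 ± 0.23 for Gfra1 (adjusted p = 8.66e-09) and 2.92 ± 0.20 for Ret (adjusted p = 1.38e-08). Lhx1 stood at 0.578 and 2.09 RPM at E17 and 48.3 and 64.3 at P7, 41.2 times higher (95% counting interval 17.5 to 128), and its fitted value was 5.46 ± 0.46, or 6.66 without E17 replicate 2. With no filter on low counts Lhx1 passed (5.52, adjusted p = 6.26e-30). T fell from 53.2 ± 3.26 RPM to 22.2 ± 3.45 (SD, n = 2), by 1.10 ± 0.22 on the log2 scale (adjusted p = 0.000456). Fgfr1 rose by 0.56 ± 0.19 (adjusted p = 0.0169), a call that was lost with DESeq2 (adjusted p = 0.0852), with limma (adjusted p = 0.0763) and on leaving out any E17 or P7 library (adjusted p = 0.0627 to 0.118). Bcl6b, at 30.1 and 34.0 RPM at E17 and 45.1 and 49.8 at P7, narrowly missed the threshold (0.72 ± 0.32, adjusted p = 0.0551). Bcl6b passed without E16 replicate 1 (adjusted p = 0.000447) or replicate 2 (adjusted p = 0.000836), which enter its estimate of the spread, and with the replicate block (adjusted p = 0.0198). Fgfr2 (0.52 ± 0.53) and Fgfr3 (-0.51 ± 0.42) did not pass.

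The median log2 fold change of all genes was -0.13 with TMM scaling and -4.81 with ERCC totals in this comparison. Relative to that median the members kept their values, at 3.77 and 3.76 for Gfra1, 3.05 and 3.07 for Ret, 0.69 and 0.69 for Fgfr1, 5.60 and 5.69 for Lhx1 and -0.97 and -0.98 for T. Other library sizes shift all genes nearly alike, so this likeness was fixed in advance and does not settle the direction. Markers of somatic cells moved with age as well. Sertoli markers summed to 151 to 174 RPM at E16, 172 to 181 at E17 and 71.0 to 112.5 at P7, with Amh at 0 throughout. The 6 Leydig markers summed to 31.7 to 31.8, 39.2 to 40.5 and 2.78 to 8.55 RPM, with Insl3 at 0 at E16 and E17 and not compared at P7. The 10 fibroblast markers summed to 409 to 433, 617 to 651 and 379 to 398 RPM. Of these Fn1 went from 180.6 RPM at E17 to 242.7 at P7 and Col1a1 from 32.5 to 61.7, while the rest did not rise. Without Fn1 the fibroblast sums were 263 to 281 at E16, 433 to 473 at E17 and 135 to 157 at P7. The 5 erythroid markers summed to 131 to 248 RPM at E16, 89.0 to 103 at E17 and 11.8 to 77.9 at P7, and the 5 endothelial markers to 34.1 to 36.8, 52.9 to 57.2 and 17 to 18.7. The 5 myoid markers summed to 92.6 to 94.9, 110.4 to 126 and 115.3 to 127.6 RPM. Ptch1 went from 50 RPM at E17 to 106.6 at P7, and without it the other 4 summed to 53.7 to 60.9, 64.7 to 71.7 and 9.54 to 20.1 RPM, with Acta2 at 40.6 at E17 and 9.8 at P7. The 5 macrophage markers summed to 10.4 to 10.6, 12.7 to 17.8 and 0.987 to 2.78, with Csf1r and Adgre1 at 0 at P7. Their part in the member results was not tested.

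Of 88 pathway genes tested between E17 and P7, 35 were higher and 25 lower, 68.2% against 67.9% of all genes. The ligands were counted mostly in fetal libraries, where Gdnf had 11 and 17 counts at E16, 9 and 30 at E17, and 1 and 0 at P7. Of 10 ligand genes tested 8 were lower at P7 and 0 higher, against 37.8% lower and 30.2% higher of all genes. Ligands counted mostly in fetal libraries can pass the filter on low counts through those libraries alone. Which of the 8 did so was not checked, so their direction is not read as a result. Fgf13, which acts inside the cell, stood at -1.14 ± 0.31 from 40.7 ± 1.30 RPM at E17. Of the other GDNF-regulated genes 10 of 12 were higher at P7 and 1, Tspan8, was lower, with a median of 3.59 against -0.13 for all genes. Genes high at P7 can likewise pass the filter through the P7 libraries alone. Which of the 10 did so was not checked, so this count and median are not read as a result. Mycn went from 3.28 ± 0.55 RPM at E17 to 78.4 ± 8.62 at P7 (4.71 ± 0.36), and Egr2 from 6.84 ± 0.69 to 103 ± 3.85 (4.06 ± 0.27). With ERCC totals Egr2 turned to lower and Mycn no longer passed. These totals moved the median of all genes to -4.81, and directions under them are given here for named genes only. Adaptor genes went both ways, 8 higher and 8 lower of 29, with Shc3 (-5.92 ± 0.40) and Grb14 (-5.81 ± 0.38) lower. Of the RAS, ERK and PI3K core 12 were higher and 3 lower of 22, with the MEK1 gene Map2k1 at 2.2 ± 0.26 and the RAF kinase gene Braf at -2.27 ± 0.19. The syndecan genes Sdc4 (2.96 ± 0.18) and Sdc3 (-2.67 ± 0.28) moved in opposite directions, and ERCC totals turned Sdc4 and Map2k1 to lower.

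Cultured WT cells were next set against germ cells in vivo, in a fit of all 12 libraries. Beside WT GSCs, Ret (1.07 ± 0.13, adjusted p = 5.72e-08), Lhx1 (3.91 ± 0.33, adjusted p = 1.18e-11), Bcl6b (0.73 ± 0.23, adjusted p = 0.015) and T (adjusted p = 2.12e-10) were higher at P7, and ERCC totals kept the direction of all 4. T and Lhx1 pass the filter on low counts without the P7 libraries, through knockout or fetal ones. These 4 are 50% of the 8 members tested, against 31.0% of all 15827 genes, with 16% higher and 15.0% lower. The higher calls, 51.7% of all calls here, came to 64.5% with limma and 16.2% with ERCC totals. The T level at P7 was 56.7 times that in WT (95% counting interval 19.0 to 278). The Bcl6b call was lost on leaving out any WT or P7 library (adjusted p = 0.0506 to 0.136), with limma (adjusted p = 0.0544) and with ERCC totals (adjusted p = 0.671), and the Ret call with ERCC totals (0.53, adjusted p = 0.0751). Gfra1 (0.25 ± 0.13, adjusted p = 0.15), Fgfr1 (-0.06 ± 0.16), Fgfr2 (1.28 ± 0.57, adjusted p = 0.0862) and Fgfr3 (0.34 ± 0.43) did not pass. The knockout lines and P7 thus both stood above WT for Ret, Lhx1, Bcl6b and T, but these comparisons share the WT libraries. Fgfr2 passed with limma (1.15, adjusted p = 0.0261) and with only the compared groups in the fit (adjusted p = 0.0427).

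Fetal germ cells, as the mean of E16 and E17, differed from WT GSCs in 5 of 8 members, 62.5% against 74.2% of all genes, with 41.9% higher and 32.3% lower. The higher calls, 56.5% of all calls, came to 98.9% with ERCC totals. Gfra1 was lower by 3.90 ± 0.16 on the log2 scale (-3.90, adjusted p = 5.53e-22), and ERCC totals kept that direction at -1.26. Ret (-2.16 ± 0.14, adjusted p = 4.29e-16), Fgfr1 (-0.63 ± 0.15, adjusted p = 0.000256) and Lhx1 (-1.96 ± 0.57, adjusted p = 0.00247) were lower too, and all 3 turned to higher with ERCC totals. The Lhx1 value was -2.57 without E17 replicate 2. T was higher (adjusted p = 1.13e-15), at 135.7 times the WT level (95% counting interval 46.1 to 661). Bcl6b (0.07 ± 0.22), Fgfr3 (0.26 ± 0.40) and Fgfr2 (1.06 ± 0.53, adjusted p = 0.071) did not pass, although Fgfr2 passed with RLE size factors (adjusted p = 0.034) and with limma (adjusted p = 0.0126). The median of all genes was 0.23 with TMM scaling and 2.87 with ERCC totals, and relative to it Gfra1 stood at -4.13 under both, Ret at -2.39 and -2.42, Fgfr1 at -0.86 and -0.85 and T at 6.58 and 6.57. Here too a nearly common shift of all genes fixed this likeness in advance.

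The genes whose levels ran most alike were listed as a description, by Pearson's r of log2(RPM + 1) over the 12 libraries among 9309 genes with a mean of at least 20 RPM in some group. The 12 points share their scaling and fall into groups of 2. Gfra1 ran closest to Plaa (r = 0.9965), Zfp36l1 (0.9952) and Ero1l (0.995), and with Ret at 0.963. Ret ran closest to Amot (0.9926) and Caprin2 (0.9896), and Fgfr1 to Ppp1ca (0.9733), Cyp51 (0.9708) and Atl2 (0.968). The genes nearest to Lhx1 were Egr2 (0.9745), which is also on the pathway list, Psmd1 (0.9722) and Sptbn1 (0.97). Bcl6b had less close neighbours, Tmem132e (0.9292), Arfgap1 (0.9258) and Upf3b (0.909). T ran closest to Ppfibp2 (0.9704), to Clu (0.9627), which is on the Sertoli marker list, and to Ace (0.9585), and it was negatively related to Gfra1 (-0.7141).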

How the data were processed

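The authors deposited a table of whole read counts per gene for each library, and the counts were used for every test. The submitters' processing notes name the build GRCm38.p6 and the tools Salmon 1.4.0, HTSeq 0.9.1, TopHat2 2.1.1 and cutadapt 1.18, with no role for any of them and no strand setting. The scaled column the authors deposited was reproduced from the counts and not tested.

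Fits used edgeR 4.0.16 (quasi-likelihood, TMM, filterByExpr by group) in R 4.3.3, on all genes of 6 GSC libraries, of 6 in vivo libraries, or of all 12, with the 31675 genes of both gene lists (31685 shared by Entrez ID, less those with blank cells) where P7 entered. Benjamini-Hochberg adjustment covered all genes tested, at 0.05. ERCC rows were left out of the gene tests. Alternatives were RLE, DESeq2 1.42.0, no filter, ERCC totals, a replicate block, leaving out each library, other groupings of the fit, and limma 3.58.1 on log2(RPM + 1). The fits were tested on simulated data.

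Total counts of 1938644 to 4596607 set floors of 0.748 to 1.73 RPM. For GSC WT, replicate numbers follow the titles, which are opposite to those in the file names. Replicates of a group differed by more than sampling noise.

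The members and lists were chosen with earlier results of these data known. All members are named. Pathway genes named by rule were, per role and comparison within GSCs and in vivo, at most the 2 past the threshold with the largest change and at least 20 RPM in the higher group, and others are said to be picked out afterwards. The most alike genes leave out predicted, mitochondrial and ribosomal protein genes. Of the genes these rules choose, 2 are not reported here.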

Additional observations from a re-analysis of the deposited data

How the results depend on the processing

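Of 872 alternative values of single members, 790 kept their direction and side of the threshold, 32 passed newly, 15 no longer passed and 35 changed sign. Of 442 for pathway genes, 382 stayed, 55 no longer passed, 5 changed sign and 0 passed newly. On leaving out each library the members past the threshold, Lhx1 and T included, numbered 4 to 5 for the mean of both knockout lines, 4 to 4 for KO1, 4 to 5 for KO2, 0 to 0 between the lines, 0 to 2 for E17 against E16, 4 to 6 for P7 against E17, 3 to 4 for P7 against WT and 5 to 5 for fetal cells against WT. For E17 against E16, 8 members passed with ERCC totals, 3 with limma and 1 with all libraries in 1 fit, against 0. Among all genes there, 14508 of 14776 passed with ERCC totals, 1292 with limma and 1763 with all libraries in 1 fit, against 975. For P7 against WT, 2 members passed with ERCC totals, against 4, and 5618 of all genes, against 4909.

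ERCC totals moved the median of all genes to 3.02 for E17 against E16, -4.81 for P7 against E17, -0.42 for P7 against WT, 2.87 for fetal cells against WT and -0.16 for KO1 against KO2. With these totals the sign changed for E17 against E16 in Fgfr1 (2.97), Fgfr2 (2.40), Bcl6b (2.95), T (2.69), Mapk3 (2.51) and Egr4 (2.09). It changed for P7 against E17 in Gfra1 (-1.06), Ret (-1.74), Fgfr1 (-4.12), Fgfr2 (-4.12), Bcl6b (-3.95), Sdc4 (-1.73), Map2k1 (-2.50) and Egr2 (-0.61). It changed for P7 against WT in Gfra1 (-0.31) and Fgfr3 (-0.21), for fetal cells against WT in Ret (0.45), Fgfr1 (2.02) and Lhx1 (0.61), and for KO1 against KO2 in Fgfr3 (-0.070). With limma the sign changed for E17 against E16 in Fgfr1 (0.29), Bcl6b (0.35) and T (0.0082), and for P7 against WT in Fgfr1 (0.068). On leaving out single libraries, Fgfr3 ran from -0.46 to 0.11 (without WT replicate 2 or 1) in the mean of both lines, reached 0.16 in KO1, and ran from -0.51 to 0.059 in KO2 and from -0.013 to 0.53 (without WT replicate 2 or 1) in fetal cells against WT. For KO1 against KO2, Fgfr1, at -0.00074, turned positive with no filter (0.00083), without WT replicate 1 (0.0043) or 2 (0.0039), without KO1 replicate 2 (0.14; -0.17 without replicate 1) and without KO2 replicate 1 (0.028). Fgfr3 turned negative there without KO1 replicate 1 (-0.057) or KO2 replicate 2 (-0.067). For E17 against E16, such values ran from -0.12 to 0.061 for Fgfr1 (without E16 replicate 2 or 1; 0.030 without E17 replicate 1), from -0.41 (without E17 replicate 2) to 1.46 for Lhx1 and from -0.65 to 0.74 (without E16 replicate 1 or 2) for Bcl6b. Bcl6b turned negative in fetal cells against WT without E16 replicate 2 (-0.42). The cause was not tested.

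Among all genes, 2286 passed in the mean of both lines, against 1083 with DESeq2, 1447 with ERCC totals and 1421 with all libraries in 1 fit. KO1 gave 1622, against 679 with DESeq2, 858 with all libraries in 1 fit, and 875 or 859 without KO1 replicate 1 or 2. KO2 gave 1860, against 864 with DESeq2, 1191 with ERCC totals, 1008 with all libraries in 1 fit, and 977 or 905 without KO2 replicate 1 or 2. KO1 against KO2 gave 99, against 35 with DESeq2, 39 with all libraries in 1 fit, 189 or 185 without WT replicate 1 or 2, and 41 to 45 without a knockout library. E17 against E16 gave 975, against 14508 with ERCC totals, 1763 with all libraries in 1 fit, 3645 or 1506 without E16 replicate 1 or 2, and 232 or 260 without E17 replicate 1 or 2. P7 against WT gave 4909, against 3200 without P7 replicate 1.

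Same-numbered libraries of different groups deviated together little (r = -0.012 to 0.073 within the GSC and in vivo fits), so the numbers were not taken to pair them. With the replicate block the members past the threshold numbered 5 for the mean of both lines, 4 for KO1, 5 for KO2, 0 between the lines, 0 for E17 against E16, 6 for P7 against E17, 4 for P7 against WT and 5 for fetal cells against WT. All genes past it numbered 2531, 1846, 2087, 136, 1314, 10024, 4879 and 11678 in the same order. The block changed the calls of Gfra1 in the mean of both lines and in KO2 (0.27, adjusted p = 0.0391) and of Bcl6b at P7, and no other call of a member. Depth limits Fgfr4, Fgfr2 and the fetal Lhx1 and Gfra1 values, which rest on at most 56 counts a group.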
